A study of Drosophila melanogaster with 4 samples.

Results

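Of the 384 Drosophila melanogaster individuals whose RNA was barcoded in this single-embryo series, 253 have a place in the pseudotime order that the authors deposited, 245 embryos and 8 unfertilized eggs. The embryos described here carry names that start with E1 or E3, have no place in that order, and reached at least 163287 UMIs (unique molecular identifiers, 1 per counted RNA molecule). That floor is the lowest total of any individual in the order. The rule found 57 embryos, 39 with E1 names and 18 with E3 names. They were chosen by name, by absence from the order and by UMI total, and the labels do not say why the authors left them out. What the digit and the letter that follows it (A, B or C) stand for is not given in the labels, and the letters were spread as 12, 13 and 14 E1 embryos and as 8, 4 and 6 E3 embryos.

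By the labels, both name classes share 1 cross and the same rearing conditions. Virgin females of the inbred line DGRP_737 were crossed to males of DGRP_352, with rearing at 25 °C and 60% humidity. An embryo age of 0 to 3 h is given by the labels. No embryo carried a mutation or received a treatment by these labels, and each embryo is 1 hybrid individual. Polyadenylated RNA of single embryos was counted from its 3′ end by a modified CEL-Seq2 protocol, with 96 individuals in each of 4 libraries. Those libraries entered the main fits as a covariate, and single embryos were the replicates.

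A fly embryo first runs on RNA that its mother loaded into the egg. Its own genome takes over at the mid-blastula transition, when gap, pair-rule and dorsoventral genes pattern the blastoderm. Hox, neural and Notch-pathway genes follow as the germ layers move and the nervous system is laid down. Contractile muscle proteins, collagen and the proteins of the cuticle and tracheal lining are known as products of later embryogenesis, well after gastrulation, while mitotic regulators decline as cells leave the cycle.

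Of all embryos in the barcode table, 44 of 118 with E1 names (37.3%) and 43 of 115 with E3 names (37.4%) had no place in the order. The UMI floor divided them unevenly. Below it were 5 E1 embryos (4.24% of 118) and 25 E3 embryos (21.7% of 115), and above it 39 of 113 E1 embryos (34.5%) and 18 of 90 E3 embryos (20.0%) were left out. These shares follow from the values that define the members and are given without a test. Libraries 1 to 4 held 8, 14, 8 and 9 of the left-out E1 embryos, and 3, 5, 7 and 3 of the left-out E3 embryos. Total UMIs ran from 319307 to 1218833 with a median of 540583 in left-out E1 embryos, and from 187817 to 1355196 with a median of 686202.5 in left-out E3 embryos. Genes with at least 1 UMI numbered 7021 to 9623 in left-out E1 embryos and 5165 to 9502 in left-out E3 embryos, overlapping ranges. Their medians, 8135 and 8881 genes, lay above the in-order medians of 7237 for E1 and 7231 for E3.

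Most left-out embryos lay further from every embryo of the order than in-order embryos lay from their own nearest neighbour. For each one, the Spearman correlation of log2(CPM + 1) (CPM, counts scaled to a common total per embryo) over 5698 genes was taken with every in-order embryo. These genes had passed a filter on low counts in the left-out E1 and E3 embryos, and 4745 of them also passed it in in-order E1 and E3 embryos. The genes were thus not chosen evenly from both sets, and other choices of genes were not tried. Within the order, the closest other embryo always correlated at 0.919 or above, with a median of 0.983. The highest correlation of a left-out embryo stayed under that 0.919 in 27 of 39 E1 embryos and in 16 of 18 E3 embryos (Fisher's exact test over all libraries together, two-sided p = 0.185). Its lowest values were 0.418 in E1 and 0.412 in E3. Each embryo was also placed at the median rank of its 10 closest in-order embryos, and 36 of 39 E1 embryos and 16 of 18 E3 embryos came after rank 200 of 245. This place separates the left-out embryos poorly, because most crowd at the end of the order whether or not they resemble it. For example, E1 embryos with highest correlations of 0.956 and 0.463 were both placed at rank 239.5. In-order E1 embryos had a median rank of 37.5 and in-order E3 embryos one of 189.5.

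**Figure D1:**
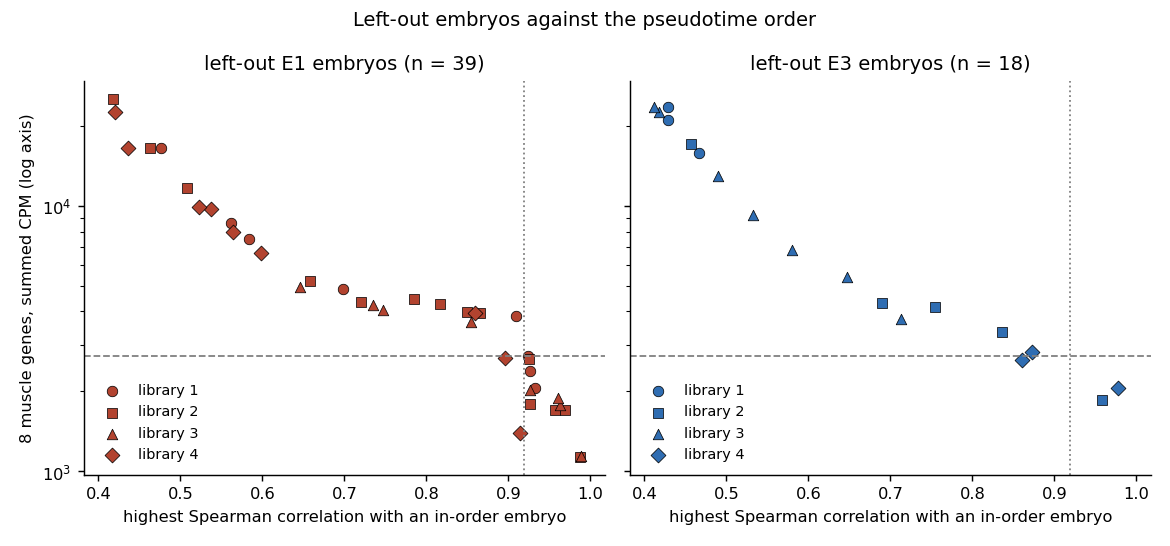
Summed CPM of 8 muscle genes (log axis) against the highest Spearman correlation with any in-order embryo, for 39 left-out E1 embryos and 18 left-out E3 embryos, 1 point per embryo and 1 marker shape per library. The dashed line marks the highest muscle sum of the order (2725 CPM) and the dotted line its lowest nearest correlation (0.919): most embryos of both names lie above the dashed line and left of the dotted line, and the muscle sum is higher where the correlation is lower.

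Genes of differentiated tissues reached levels outside the range of the order in many of these embryos. The 8 muscle genes (Mef2, the muscle transcription factor, and 7 genes of actin, myosin, tropomyosin and troponin) summed to at most 2725 CPM in any in-order embryo. That level was exceeded in 25 of 39 left-out E1 embryos and in 15 of 18 left-out E3 embryos. Across embryos the sum ran from 1135 to 25236 CPM with a median of 4053 in E1, and from 1865 to 23592 CPM with a median of 6113 in E3. Act57B, an actin of the larval body wall muscles, passed its in-order maximum of 108 CPM in 33 E1 embryos and 15 E3 embryos. It reached 6089 CPM in left-out E1 and 6088 CPM in left-out E3, with medians of 1949 and 2205 CPM, while the in-order medians were 39.9 CPM in E1 and 40.1 CPM in E3. In whole embryos, more cells of a type and more RNA per cell cannot be told apart. Mhc, the muscle myosin heavy chain, split the left-out embryos more widely. It passed 24.5 CPM, its in-order maximum, in 15 E1 embryos and 10 E3 embryos. Mhc was at 0 in 4 E1 embryos and 1 E3 embryo, with highest values of 2837 CPM in E1 and 2746 CPM in E3. The summed level of the 8 genes did not always follow Act57B and Mhc. E1 embryos with sums of 1135 and 1145 CPM had only 24.2 and 20.3 CPM of Act57B. An E3 embryo of library 4 with a sum of 2810 CPM had 42.1 CPM of Act57B, and its Mhc was below the in-order maximum. A sum above 2725 CPM therefore does not by itself show that Act57B or Mhc exceeded the order.

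Genes of the cuticle, trachea and extracellular matrix also exceeded the order in many embryos of both names. The list of 10 epidermal and tracheal genes passed its in-order maximum of 1962 CPM in 22 of 39 E1 embryos and 12 of 18 E3 embryos. Osi14, of the Osiris family of membrane proteins expressed in cuticle-forming epithelia, never exceeded 4.83 CPM in the order. Outside it, 10 E1 embryos and 9 E3 embryos went beyond that, up to 944 CPM in E1 and 1106 CPM in E3, although 22 E1 embryos and 7 E3 embryos had no Osi14 UMI. TwdlF, of the Tweedle family of cuticle proteins, had a median of only 7.07 CPM in left-out E1 and 11.9 CPM in left-out E3, near the in-order medians of 9.11 CPM in E1 and 9.58 CPM in E3, but its highest values were 4582 CPM in left-out E1 and 5662 CPM in left-out E3. Col4a1, a collagen IV chain made by haemocytes and fat body, had a median of 166 CPM in left-out E1 and 570 CPM in left-out E3, and 20 E1 embryos and 13 E3 embryos lay above the in-order maximum of 149 CPM. Hml, a defining gene of later haemocytes, was at or near 0 throughout, with at most 1.55 CPM in left-out E1 and 0 in left-out E3.

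Neural genes and the Hox gene abd-A were also above the range of the order in many embryos. The 10 neural genes passed the in-order maximum of 2799 CPM in 31 of 39 E1 embryos and 10 of 18 E3 embryos. For elav, the pan-neuronal RNA-binding protein, the median was 312 CPM in left-out E1 and 227 CPM in left-out E3, against 1.58 CPM in in-order E1 and 62.6 CPM in in-order E3. The Hox gene abd-A, which gives abdominal segments their identity, passed its in-order maximum of 188 CPM in 29 E1 embryos and 10 E3 embryos. Ubx, another Hox gene, passed its in-order maximum of 259 CPM in only 1 E1 embryo and 1 E3 embryo. Follicle and eggshell genes, which would mark maternal tissue carried along, summed to at most 21.8 CPM in left-out E1 and 26.2 CPM in left-out E3. Larval and adult gut, fat and gland genes stayed at medians of 3.86 and 7.89 CPM, with highest sums of 110 CPM in E1 and 113 CPM in E3. Whether age, a different collection or anything else put these embryos outside the order was not tested.

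**Figure D2:**
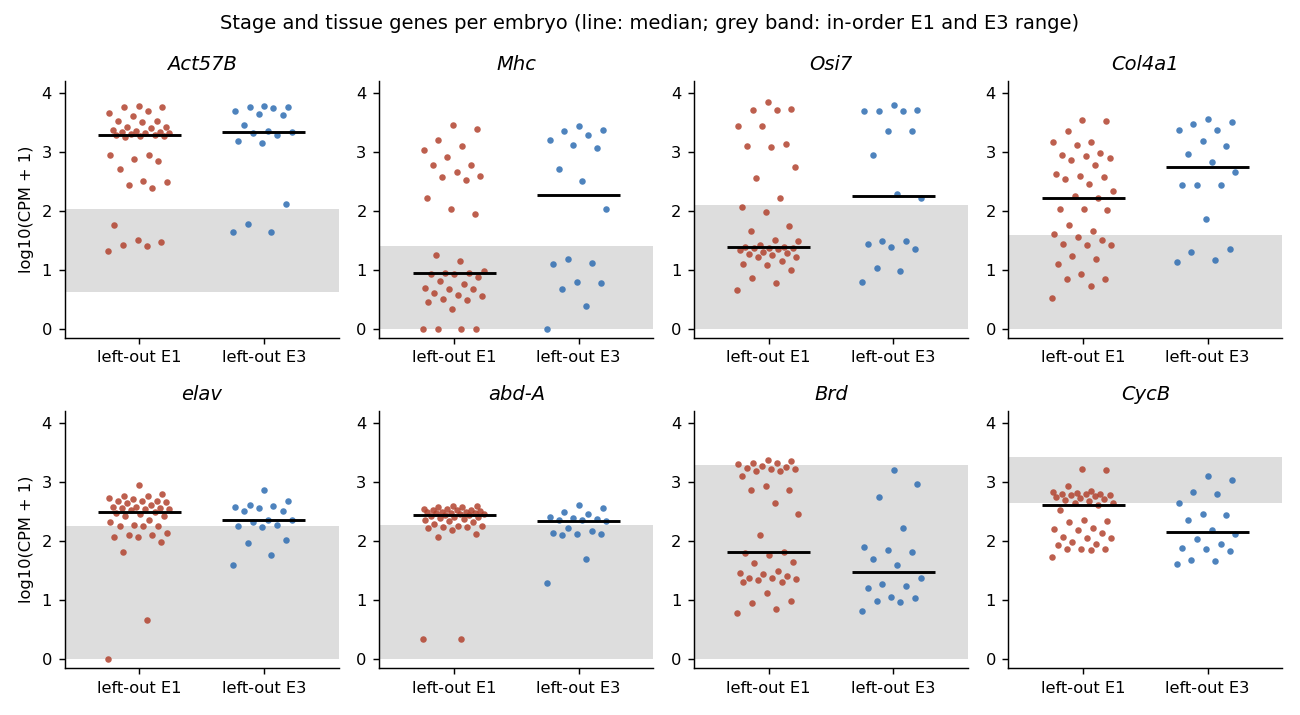
log10(CPM + 1) of 8 genes in left-out E1 (n = 39) and left-out E3 embryos (n = 18), 1 point per embryo, black line at the median, with the range of in-order E1 and E3 embryos as a grey band. Act57B, Mhc, Osi7 and Col4a1 extend far above the band in many embryos of both names, elav and abd-A mostly lie near its upper edge or above, Brd spans the band with 5 E1 embryos above its in-order maximum, and CycB lies inside the band or below it.

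The left-out embryos differed widely among themselves, in muscle genes and in 2 other lists. Bearded and E(spl) genes, the Notch-pathway targets and inhibitors of the neurogenic ectoderm, summed to 46.5 to 13777 CPM in E1 (median 2470) and to 164 to 10866 CPM in E3 (median 1139). Cell-cycle genes summed to 1208 to 11976 CPM in E1 (median 7306) and to 1249 to 18643 CPM in E3 (median 3219). The highest Bearded and E(spl) sum was in E1 and the highest cell-cycle sum in E3. The E1 embryo with the highest muscle sum had 190 CPM of Bearded and E(spl) genes and 1508 CPM of cell-cycle genes, and the corresponding E3 embryo had 181 CPM and 1249 CPM. At the low end of the muscle sums, 2 E1 embryos stood apart from the rest. They had muscle sums of 1135 and 1145 CPM, neural sums of 44.8 and 33.4 CPM, maternal body-plan sums of 5893 and 6470 CPM, and highest correlations of 0.988 and 0.989 with embryos of the order, where they were placed at ranks 38.5 and 44.5. One further E1 embryo was placed early by rank, but its highest correlation with the order was only 0.420 and its muscle sum was 22497 CPM. The maternal gene exu, needed to localize bicoid RNA, had 1394 and 1560 CPM in these embryos, while its median was 16.2 CPM in left-out E1 and its highest value 32.9 CPM in left-out E3.

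The number of detected genes, the spike-in share and the place along the order did not pass a test between the names. Left-out E1 embryos averaged 605343 ± 202224 UMIs and left-out E3 embryos 632622 ± 265438 UMIs (SD, n = 39 and n = 18), a value that the floor had cut and for which no test is given. Detected genes averaged 8196 ± 684 in E1 and 8333 ± 1280 in E3 (two-sided permutation test within libraries, 100000 resamples, p = 0.604, adjusted p = 0.672 over 4 measures, total UMIs among them). Without library 4 the difference in detected genes was -723 (permutation test, p = 0.00078), while leaving out a different library instead made it positive. Spike-in RNA made up 0.0846% of UMIs in E1 and 0.0691% in E3 (permutation test, p = 0.157, adjusted p = 0.627). The place along the order averaged rank 224.6 in E1 and 234.2 in E3 (permutation test, p = 0.525, adjusted p = 0.672). Most embryos of both names crowd at the end of the order, so this test could hardly separate the names. These p-values do not show that the names were alike.

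The 4 libraries did not show the same contrast, and library 4 ran against libraries 1 and 3. Median muscle sums in libraries 1 to 4 were 4359, 4119, 2839 and 7940 CPM in left-out E1 and 20959, 4146, 9236 and 2636 CPM in left-out E3. So the E3 median was higher in libraries 1 and 3, near the E1 median in library 2, and lower in library 4. Cell-cycle sums had the mirror pattern, with medians of 7498, 7638, 9462 and 2527 CPM in E1 and 1457, 5454, 2427 and 13609 CPM in E3. The first principal component of the 57 embryos, which held 51.7% of the variance and was oriented to run up with the muscle genes, differed between E1 and E3 by -93.6, -9.82, -101 and 124 units in libraries 1 to 4. Its overall difference was -29.7 units (permutation test within libraries, p = 0.125), and -63.98 units without library 4 (permutation test, p = 0.0012). Leaving out a different library instead turned the sign of this difference. The highest correlation with the order averaged 0.755 ± 0.191 in E1 and 0.640 ± 0.198 in E3 (SD, n = 39 and n = 18; permutation test, p = 0.0414, adjusted p = 0.0827 over these 2 measures), and in library 4 it was lower in E1 by a difference of -0.265. The 3 left-out E3 embryos of library 4 had 187817, 213865 and 707935 UMIs, of which the first 2 are the lowest totals of all 57 embryos, and their highest correlations with the order were 0.861, 0.872 and 0.978.

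**Figure D3:**
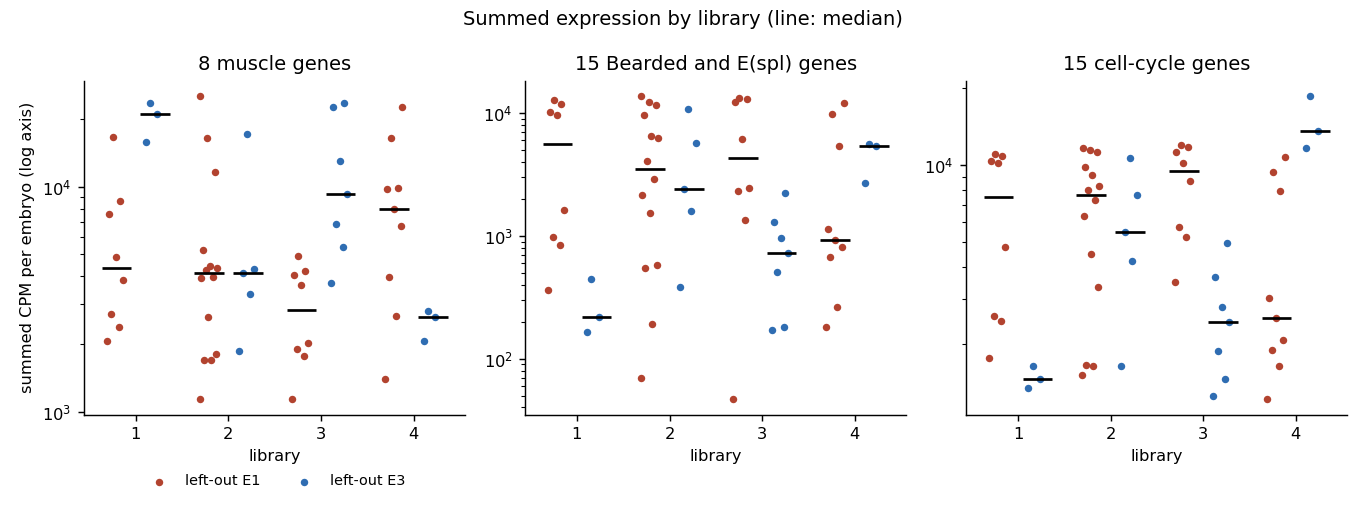
Summed CPM per embryo (log axis) of muscle, Bearded and E(spl), and cell-cycle genes, in libraries 1 to 4, with left-out E1 embryos left of left-out E3 embryos and a line at each median. In libraries 1 and 3 the E3 embryos are high in muscle genes and low in the other lists, and in library 4 the 3 E3 embryos show the reverse.

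Against that spread, few genes differed by name. Of 5698 genes tested with library as covariate, 114 passed an adjusted p of 0.05 (2.00%; edgeR quasi-likelihood test, Benjamini-Hochberg), 55 of them higher in E1 (0.965%) and 59 lower (1.04%). At an unadjusted p of 0.05, 1139 genes passed (20.0%). The median log2 fold change of all tested genes was -0.02 with TMM scaling and 0.12 with total UMIs alone, and that change of scale moved the split of calls to 111 higher and 17 lower. The calls leaned on single libraries: leaving out library 1 left 0 calls in edgeR (712 genes at an unadjusted p of 0.05), leaving out library 2 gave 202 higher and 255 lower, leaving out library 3 left 4, all lower in E1, and leaving out library 4 gave 625 higher and 390 lower. DESeq2 called 144 higher and 218 lower. All 114 genes kept their direction in each of these fits in which they were tested. The fits reuse the embryos that gave the calls, so this was likely from the start. The named genes below are the 12 with the largest and the 12 with the smallest fold changes among calls that were present in most embryos, reached 10 CPM, and had the same direction in all 4 libraries, a condition that 87 of the 114 calls met. In none of the 24 were the E1 and E3 ranges apart.

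Among genes higher in E1, Inos, the inositol phosphate synthase, had the largest change. It ran from 0 to 68.5 CPM with a median of 16.8 CPM in left-out E1, and from 0 to 40.0 CPM with a median of 2.68 CPM in left-out E3 (log2 fold change 1.84 ± 0.50 SE, edgeR adjusted p = 0.0421). The E1 embryos sat above the E3 median in 32 of 39 cases, and 1 of 18 E3 embryos sat above the E1 median. The spindle protein mars had a median of 17.3 CPM in E1 (1.33 to 63.0) and 4.49 CPM in E3 (0 to 51.3), a change of 1.30 ± 0.37 (edgeR adjusted p = 0.0491). Grip91, a subunit of the γ-tubulin ring, had a median of 13.4 CPM in E1 (0 to 52.1) and 5.39 CPM in E3 (0 to 17.5), a change of 1.15 ± 0.32 (edgeR adjusted p = 0.0443), and 15 E1 embryos exceeded the highest E3 embryo. The cyclin A inhibitor rux had a median of 21.4 CPM in E1 (0 to 49.4) and 9.14 CPM in E3 (0 to 26.3), a change of 0.99 ± 0.27 (edgeR adjusted p = 0.0421). All 3 of these mitotic genes overlapped between the names, with the E1 embryos mostly in the upper part.

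The chromatin gene yem, a partner in the deposition of the histone variant H3.3, had a median of 44.6 CPM in E1 (6.26 to 362) and 23.7 CPM in E3 (0 to 63.8), a change of 0.96 ± 0.26 (edgeR adjusted p = 0.0421). Its partner Hira, named after its value was seen, had a median of 39.2 CPM in E1 (8.77 to 156) and 24.7 CPM in E3 (0 to 51.7), a change of 0.82 ± 0.21 (edgeR adjusted p = 0.0375). NO66, a histone demethylase, had a median of 42.8 CPM in E1 (16.1 to 377) and 24.4 CPM in E3 (0 to 66.3). The upper ends of these 3 E1 ranges lay well above the E3 ranges. Without the 2 E1 embryos of high exu, the log2 fold changes were 0.58 for yem, 0.69 for Hira and 0.77 for NO66 (edgeR adjusted p = 0.0577, 0.0438 and 0.0322), so yem was no longer called, and 77 genes were called higher and 114 lower in all. Usp5, a deubiquitinase, had a median of 57.9 CPM in E1 (8.77 to 217) and 25.9 CPM in E3 (4.98 to 80.1), a change of 0.93 ± 0.23 (edgeR adjusted p = 0.0279). hpRNA:CR33940, a hairpin RNA gene and as such a source of endogenous siRNAs, had medians of 40.0 CPM in E1 and 9.76 CPM in E3. The remaining named genes were CG11164, CG12018, CG3500 and CG7878, with log2 fold changes of 1.31, 1.27, 1.10 and 1.07. Among them CG3500 had the smallest adjusted p (0.0168 by edgeR), with a median of 27.4 CPM in E1 (5.45 to 67.7) and 12.2 CPM in E3 (0 to 41.3). Its difference of mean log2(CPM + 1) was 2.84 in library 4, against 1.45, 0.84 and 1.42 in libraries 1 to 3. Library 4 was also the largest for CG12018, Grip91, NO66, CG7878, yem and Usp5, but not for Inos, CG11164, mars, hpRNA:CR33940 and rux. The E3 embryos of library 4, which include the shallowest, had medians of 0 CPM for CG3500, CG12018, Grip91 and Inos.

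Among genes lower in E1, CG6398 shared the smallest adjusted p of all genes tested with wal (log2 fold change -0.59), which encodes an electron transfer flavoprotein subunit, fell outside the 12 and is named after its values were seen. CG6398 lies on chromosome X, 17830828 to 17841705, plus strand (dm6). It ran from 59.3 to 221 CPM with a median of 128 CPM in E1, and from 82.2 to 335 CPM with a median of 173 CPM in E3 (log2 fold change -0.70 ± 0.13 SE, edgeR adjusted p = 0.00716). In 37 of 39 E1 embryos it lay below the E3 median, and the difference of mean log2(CPM + 1) was negative in all 4 libraries, smallest in library 3 (-0.22) and largest in library 4. ND-B14, a subunit of respiratory complex I, had a median of 61.8 CPM in E1 (33.0 to 106) and 87.7 CPM in E3 (42.5 to 209), a change of -0.75 ± 0.16 (edgeR adjusted p = 0.0168). Scsalpha1, a succinyl-CoA synthetase subunit of the citric acid cycle, had a median of 110 CPM in E1 (56.7 to 371) and 156 CPM in E3 (66.3 to 532), a change of -0.74 ± 0.20 (edgeR adjusted p = 0.0421). Of the 12 tested genes of the mitochondrial genome itself, 11 had negative log2 fold changes, the median was -0.27, and edgeR called 0 (5 at an unadjusted p of 0.05), while DESeq2 called mt:ND3 lower.

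Also lower in E1 was ths, which encodes thisbe, an FGF ligand that acts through the receptor Heartless. It had a median of 94.6 CPM in E1 (0 to 182) and 136 CPM in E3 (75.1 to 617), a change of -0.95 ± 0.27 (edgeR adjusted p = 0.0468). With total UMIs as the scale, 6 of the 12 genes lower in E1 were no longer called by edgeR, namely ths (adjusted p = 0.0551), bcn92 (0.0591), Mkp3 (0.0605), BI-1 (0.0646), toc (0.0851) and Scsalpha1 (0.1004), while all 12 of the genes higher in E1 were. Its receptor gene htl had a log2 fold change of -0.66 ± 0.29 and did not pass (edgeR adjusted p = 0.192). Mkp3, the phosphatase that switches off ERK downstream of such receptors, had a median of 103 CPM in E1 (11.0 to 168) and 126 CPM in E3 (72.6 to 591), a change of -0.76 ± 0.19 (edgeR adjusted p = 0.0287). nst, an enzyme of amino-sugar synthesis that is required for FGF signalling in fly embryos, had a median of 60.3 CPM in E1 (30.8 to 125) and 85.4 CPM in E3 (40.5 to 181), a change of -0.69 ± 0.15 (edgeR adjusted p = 0.0168). These 3 genes were chosen by size and not as a pathway, and E3 embryos held the highest value of each. mth, a G-protein-coupled receptor, had the most negative change of the 12, with a median of 10.0 CPM in E1 (1.51 to 34.4) and 25.2 CPM in E3 (5.00 to 79.9), a change of -1.27 ± 0.30 (edgeR adjusted p = 0.0194). The poly(ADP-ribose) polymerase gene Parp had medians of 18.6 CPM in E1 and 25.3 CPM in E3 (log2 fold change -0.94 ± 0.21), and library 4 gave the largest of its 4 differences, -2.42, against -0.57, -0.44 and -0.09 in libraries 1 to 3. The rest of the 12 were toc (-1.05), ZnT63C (-0.80), bcn92 (-0.75) and BI-1 (-0.66).

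In edgeR none of the stage lists yielded more than 1 call, and DESeq2 called several genes in 3 of them. Over all 5698 genes DESeq2 called 144 higher and 218 lower in E1, with 892 adjusted p-values missing. Muscle genes had a median log2 fold change of -2.12 over 8 tested genes, with 7 negative, against -0.02 for all tested genes, and edgeR called 0 of 8 (1 at an unadjusted p of 0.05). DESeq2 called 5 of these 8 lower in E1, namely Mhc, wupA, Tm2, Mlc2 and up, with adjusted p from 0.0327 to 0.0424. For Mhc the log2 fold change was -2.67 ± 1.50 (edgeR adjusted p = 0.294). The epidermal and tracheal list had a median of -1.70 over 9 tested genes, and the haemocyte and fat body list -1.11 over 6, both with 0 calls in edgeR (3 and 1 at an unadjusted p of 0.05). DESeq2 called 5 of those 9 lower, TwdlF, Osi6, Osi7, Osi14 and Osi20, and 0 of the 6. Bearded and E(spl) genes leaned the other way, with 14 of 15 positive, a median of 1.33 and 0 calls in edgeR (6 at an unadjusted p of 0.05). DESeq2 called 5 of the 15 higher in E1, Brd and 4 E(spl) genes. Brd, an inhibitor of Notch ligand signalling, had a median of 63.6 CPM in E1 (5.04 to 2325) and 30.3 CPM in E3 (5.60 to 1622), a log2 fold change of 1.96 ± 0.86 (edgeR adjusted p = 0.192). All 11 tested cell-cycle genes were positive with a median of 0.34, and 0 were called by edgeR or DESeq2 (0 at an unadjusted p of 0.05 in edgeR), while 9 of 10 neural genes were positive with a median of 0.28. Gap, pair-rule, dorsoventral, segment polarity and Hox lists had medians between -0.37 and 0.03, and ths was their only call in edgeR, to which DESeq2 added the pair-rule gene opa, lower in E1. The 84 tested ribosomal protein genes had a median of 0.00 and 1 call, RpS28b (-0.39 ± 0.11, edgeR adjusted p = 0.0426). Lists of maternal body-plan genes, germ plasm, egg activation and RNA decay, zygotic activators, histones, sex and dosage, stress and death, and amnioserosa had medians of 0.06, 0.07, 0.27, -0.17, 0.06, 0.05, -0.05 and 0.41 and 0 calls in edgeR (at an unadjusted p of 0.05, 4 maternal body-plan genes, 3 of stress and death, 1 of egg activation and 1 of sex and dosage). In these lists DESeq2 called Tl higher and cact and egr lower. The cellularization list had 1 tested gene (-0.96, not called), and no immune, eggshell or larval gene was abundant enough to be tested.

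These list results changed with the library that was left out. Without the 12 embryos of library 4, 625 of all 5576 tested genes were called higher in E1 and 390 lower. In that fit 9 of 11 cell-cycle genes were called higher in E1 with a median log2 fold change of 1.09, and 7 of 15 Bearded and E(spl) genes were called higher with a median of 1.50. Among them fzy, an activator of the anaphase-promoting complex, had a log2 fold change of 1.54 ± 0.46 (edgeR adjusted p = 0.0330) without library 4, compared with 0.43 ± 0.53 in all libraries. CycA, the mitotic cyclin A, had 1.22 ± 0.34 (edgeR adjusted p = 0.0309) against 0.65 ± 0.33. In the same fit Osi6 and Osi20 were called lower in E1, and muscle genes were all negative with a median of -2.95 and 0 calls. Leaving out library 3 instead gave a cell-cycle median of -0.18, with 8 of 11 genes negative, a muscle median of -0.30 and a Bearded and E(spl) median of 0.60. Among the cell-cycle genes of that fit, CycE had the lowest p (edgeR adjusted p = 0.476), so none was called. Leaving out library 1 gave a cell-cycle median of 0.098 and a Bearded and E(spl) median of 0.89. The cell-cycle median thus changed sign with the library left out, but its negative value came without a called gene.

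**Figure D4:**
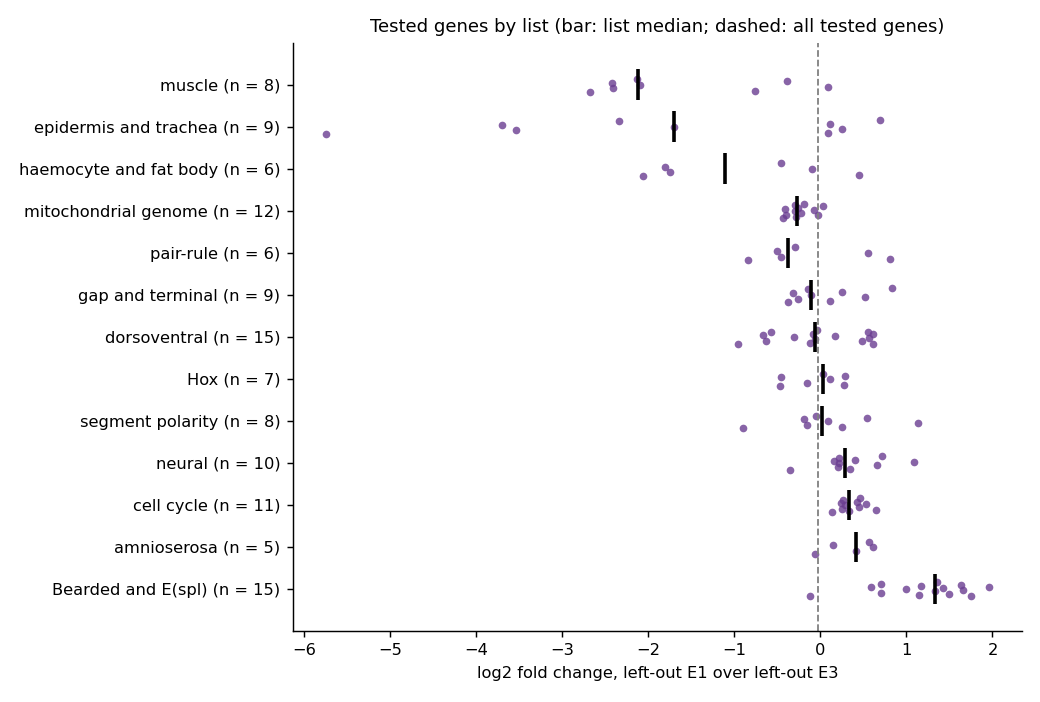
log2 fold change (left-out E1 over left-out E3) of each tested gene in 13 lists, 1 point per gene, with a bar at the list median and a dashed line at the median of all tested genes (-0.02). Muscle, epidermal and haemocyte lists lie to the left, and the Bearded and E(spl) list to the right, although ths in the dorsoventral list is the only point that passed the edgeR test.

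The same names compared within the order gave a much larger contrast. Between 74 in-order E1 and 72 in-order E3 embryos, 5239 of 5717 tested genes passed (91.6%), 2551 higher (44.6%) and 2688 lower (47.0%) in E1 (3316 and 1916 when scaled by total UMIs alone). In-order E1 and E3 embryos had median ranks of 37.5 and 189.5, so name and place along the order cannot be told apart here. The in-order fit also held more embryos, with a median SE of 0.0974 against 0.215 in the left-out fit. The difference between the left-out and in-order contrasts was itself past the threshold for 4871 of 7132 genes (68.3%; edgeR interaction term, adjusted p under 0.05), 2604 with a positive (36.5%) and 2267 with a negative difference (31.8%; 1916 and 2988 when scaled by total UMIs alone). No embryo is in both contrasts. All 24 named genes had the same sign in the order, and 22 of 24 passed there. Scaled by total UMIs alone, the median log2 fold change of all genes in the order was 0.50 in place of -0.05, and 23 of 24 kept the sign, ZnT63C being the exception at 0.47 in place of -0.06.

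Under TMM scaling the left-out change was the smaller of the pair for 20 of the 24 named genes, and under total UMIs alone for 13, since 8 of the 12 genes lower in E1 then had the larger change in left-out embryos. Usp5 had a log2 fold change of 0.93 ± 0.23 in left-out embryos and 3.33 ± 0.12 in the order, a difference of -2.54 (edgeR adjusted p = 1.8e-21). yem had 0.96 in left-out embryos and 2.59 in the order, and CG7878 had 1.07 and 3.00. ths had -0.95 in left-out embryos and -4.16 in the order, a difference of 3.26 (edgeR adjusted p = 4.5e-07). CG11164 went against this pattern, with 1.31 in left-out embryos and 0.12 in the order, a difference of 1.13 (edgeR adjusted p = 0.000496). ZnT63C did so as well, with -0.80 and -0.06. So did mars (1.30 and 0.68) and CG3500 (1.10 and 0.57), although their differences did not pass (edgeR adjusted p = 0.0894 and 0.239). With total UMIs alone, CG11164 had 0.69 in the order and a difference of 0.75 (edgeR adjusted p = 0.0309). On that scale the differences of mars and CG3500 were 0.07 and -0.03. For mth the 2 values, -1.27 in left-out embryos and -1.29 in the order, differed by 0.16 in the joint fit (edgeR adjusted p = 0.55).

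**Figure D5:**
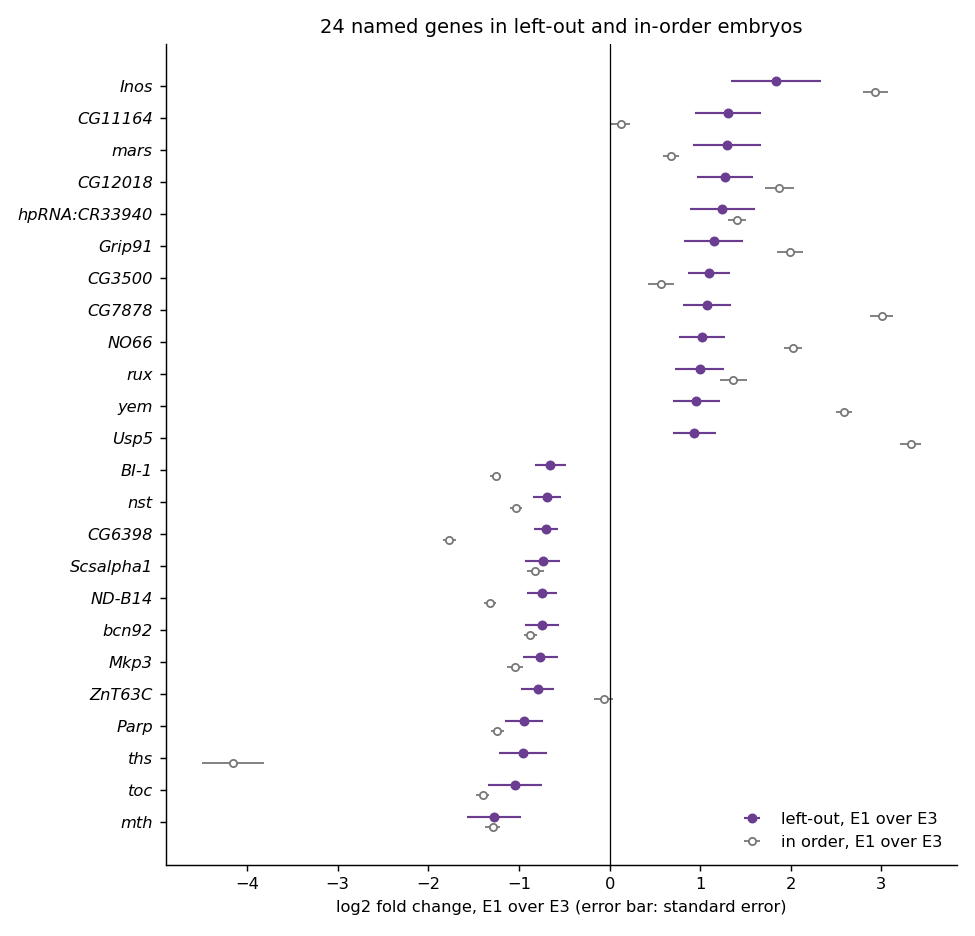
log2 fold change (E1 over E3, error bars are standard errors) of 24 named genes in left-out embryos (filled) and in-order embryos (open). With the TMM scaling shown, all 24 pairs lie on the same side of 0, 20 of them with the larger change in the order (23 and 13 with total UMIs alone), and CG11164 and ZnT63C are near 0 in the order.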

How the data were processed

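RNA was counted in single embryos of 4 CEL-Seq2 libraries. The deposited files hold raw UMI counts per gene and barcode, which the authors made with STARsolo, as the file names give it. The submitters' processing notes name Trim Galore 0.6.10, SAMtools 1.17, Picard, GATK 4.4.0.0, R 4.2.1 and the builds dm6 and BDGP6. The aligner's settings and the strand handling are not given in the sources used here. The deposited normalized table, treated as a score because its scale is not described, was used only for which individuals are in the order and at which rank. The deposited allele-level table was not used here. The members and the gene lists were chosen with earlier results of these data known.

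Each of 17807 genes was counted apart from 92 spike-ins, which made up 0.0026% to 0.307% of UMIs in the embryos compared and stayed out of totals and tests. No 2 individuals had identical counts. The highest count of any gene in 1 individual was 4092, near what the UMI length allows, so the most abundant genes are compressed, and 20 genes near that ceiling were left out in an alternative. Of the gene names, 17019 matched the BDGP6 annotation, from which identifiers and coordinates were taken.

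E1 was compared with E3 by edgeR's quasi-likelihood test (version 4.0.16; R 4.3.3), with TMM scaling, edgeR's default filter on low counts, library as covariate and Benjamini-Hochberg adjustment at 0.05. The test was checked on simulated counts with known changes. Named genes were the 12 largest and 12 smallest log2 fold changes among calls with a UMI in at least 50% of embryos and a mean of 10 CPM in the higher group, with the same direction in all 4 libraries; list members were named as well. Measures per embryo were compared by permutation within libraries (100000 resamples), with Python 3.11.15 and scipy 1.17.1. DESeq2 1.42.0 was an alternative. Since embryos share 1 cross and the libraries are pools of them, p-values measure the spread between embryos of these libraries.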

Additional observations from a re-analysis of the deposited data

Results flagged for a closer look

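For 14 of the 24 named genes, the change of E1 over E3 in left-out embryos differed from the change in in-order embryos by a test of that difference (edgeR interaction term, Benjamini-Hochberg over 7132 genes). The differences, left-out minus in-order on the log2 scale, were -2.54 for Usp5, -2.10 for CG7878, -1.72 for yem, -1.24 for Inos, -1.11 for NO66, -0.95 for Grip91 and -0.74 for CG12018, all genes higher in E1 by a smaller margin outside the order. Among genes lower in E1, they were 3.26 for ths, 1.08 for CG6398, 0.65 for BI-1, 0.61 for ND-B14 and 0.38 for nst. CG11164 (1.13) and ZnT63C (-0.72) had the larger change in left-out embryos. These counts stand beside 68.3% of all genes tested. In-order E1 and E3 embryos also differed in rank, so these differences cannot be told apart from place along the order. With total UMIs as the scale, 11 of the 14 differences passed again in the same direction, and BI-1 (0.21), nst (-0.03) and ND-B14 (0.18) did not.

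Some embryos outside the comparison also exceeded the order in the summed lists of tissue genes. Values of single genes are not given for them, and a muscle sum above 2725 CPM does not by itself show that Act57B or Mhc exceeded the order. Of 13 left-out E2 embryos, 7 exceeded the highest in-order muscle sum of 2725 CPM, with a median of 5536 CPM. Among embryos below the UMI floor that still had at least 20000 UMIs, 1 of 2 E1 embryos and 9 of 13 E3 embryos exceeded it. The below-floor E1 embryos had muscle sums of 1383 and 30540 CPM, and the below-floor E3 embryos ran from 2116 to 7821 CPM. The epidermal and tracheal list passed its in-order maximum of 1962 CPM in fewer, 4 of 13 E2 and 3 of 13 below-floor E3 embryos. Its medians there were 1078 and 1169 CPM. The haemocyte and fat body list passed its own in 6 and 4 of these embryos. For both lists 1 of 2 below-floor E1 embryos passed.

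The differences between E1 and E3 in the 4 libraries were checked for a library that stood apart, over 30 measures and genes. None of the 30 passed Dixon's limit for 4 values, where chance alone gives about 1 in 20. The 24 named genes among them had been chosen for the same direction in all 4 libraries. With only 4 values the check also has little power, so it does not show that no library stood apart.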

How the results depend on the processing

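The number of calls changed with the processing more than their direction. In each alternative that kept more than 8 embryos, every one of the 114 called genes that was tested kept its direction, but counts of genes higher and lower in E1 (55 and 59) changed with most choices. They were 144 and 218 with DESeq2 (892 adjusted p-values missing), 14 and 36 with no filter on low counts, 6 and 36 with no library covariate, 8 and 17 after thinning every embryo to 187817 UMIs, 829 and 445 with a floor of 20000 UMIs (41 E1 and 31 E3 embryos), and 8 and 15 with E2 embryos in the fit. Embryos of at least 500000 UMIs (25 E1, 13 E3) gave 0 and 0 calls in edgeR, although 1162 genes had an unadjusted p under 0.05. The place along the order as a covariate gave 118 lower. Alternatives chosen after seeing the data gave 111 and 17 (total UMIs without TMM), 123 and 153 (name letter as covariate), 32 and 216 (first principal component as covariate), and 114 lower without the 2 early-placed E1 embryos. Leaving out 1 library at a time gave 0 to 625 genes higher and 0 to 390 lower. The difference in total UMIs ran from -103095 to 52949.5 and that in detected genes from -723 to 403 (permutation test without library 4, p = 0.00078), and that in the first principal component from -63.98 to 4.48. The cause of these changes was not tested. Named genes passed again in 314 refits and not in 147, with 0 reversed. These refits reuse the embryos that gave the calls. The 24 named genes had also been chosen for the same direction in all 4 libraries. A kept direction was therefore likely from the start and is no separate support. A replicate block over the 4 pairs of E1 and E3 embryos that share letter, number and library (8 embryos) gave 0 and 0 calls in edgeR (38 genes at an unadjusted p of 0.05). The labels tie no number to a shared source, and the pairs' deviations correlated at -0.18 to 0.77. The E3 embryos of library 4 include the shallowest embryos. With log2 total UMIs as a covariate, 70 genes were higher and 64 lower, and 112 of the 114 calls passed again. After thinning, 22 of the 81 calls that were still tested passed again. These refits treat depth over all embryos, and an effect of the depth of these E3 embryos on rare genes was not tested apart from them.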
